A study of Mus musculus with 6 samples.

Results

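The 7 genes through which osteoblasts, the bone-forming cells, steer osteoclasts, the bone-resorbing cells, were followed in osteoblasts sorted from mandible (lower jaw) and tibia (shin bone). They are Tnfsf11, Tnfrsf11b, Csf1, Il34, Il6, Pth1r and Pthlh, taken by name from the 19679 gene symbols of the table, with the values of all transcripts of a symbol summed. All 7 were found, and all 7 were among the 12752 genes with a mean of at least 0.5 RPKM (reads per kilobase of transcript, scaled to the mapped reads of the library), which were tested. Mandible libraries 1 to 3 and tibia libraries 1 to 3 came from mice at postnatal day 9, every one of them carrying the transgene Col1a1*2,3-GFP, in which a Col1a1 promoter fragment drives green fluorescent protein. Cells were released with collagenase and sorted for the fluorescence, so the cells studied are those in which that promoter fragment is active and any others that passed the gate. Each of 3 dissections pooled about 50 mice and gave a library of each site, and same-numbered libraries share a dissection. There was no treatment, no mutant and no further control group.

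Osteoclasts form from monocyte precursors when osteoblast-lineage cells offer them macrophage colony-stimulating factor and RANKL. RANKL binds the receptor RANK on the precursor, and osteoprotegerin, a decoy receptor made by the same osteoblast lineage, holds RANKL back, so that the balance of RANKL to osteoprotegerin is used as a measure of the pro-resorptive drive. Parathyroid hormone and its local relative PTHrP act on a shared receptor of osteoblasts and raise RANKL, and interleukin-6 does so through gp130. In the jaw this axis is known for its part in tooth eruption: mice without functional Csf1 or RANKL have unerupted teeth, and PTHrP made next to the tooth is needed for eruption.

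Read totals recovered from the low values ran from 49.3 to 58.2 M reads in mandible libraries and from 49.1 to 51.9 M reads in tibia libraries, and 1 RPKM on a transcript of 2 kb stood for 98.2 to 116.4 reads. All 11 osteoblast markers were above the filter, with a summed level of 71649.5 to 82644.5 RPKM in the mandible and 75916.2 to 91456.0 RPKM in the tibia, and none passed with site alone in the model described next (Col1a1, Col1a2 and Ibsp did with the dissection added). Both libraries of dissection 3 stood apart from the others: neutrophil markers summed to 8212 RPKM in the mandible library and 8668 RPKM in the tibia library of that dissection, whereas dissections 1 and 2 had 697 and 1034 RPKM in the mandible and 1123 and 1730 RPKM in the tibia. Results that rest on dissection 3 are therefore given with and without it. Fold changes are given as mandible minus tibia on the log2(RPKM + 0.5) scale. Their median over the genes tested was 0.12 (-0.01 once libraries were quantile normalized), and a member's value is to be read relative to that shift.

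The ligand Pthlh and the cytokine Il6 were the members with the largest site differences, both on the higher side in the mandible, while RANKL (Tnfsf11), osteoprotegerin (Tnfrsf11b), both ligands of the Csf1 receptor and the PTH receptor overlapped between sites. With site alone in the limma model none of the 7 passed an adjusted p of 0.05, against 0.972% of all genes tested, and 2 of the 7 (Pthlh and Il6) had an unadjusted p under 0.05, against 8.99% of all genes. With the dissection as a block Pthlh passed, 1 of 7, against 6.49% of all genes (4.44% higher and 2.05% lower in the mandible). Without both libraries of dissection 3 Pthlh passed with site alone, against 5.75% of all genes. Sites did not overlap for 2 of the 7 genes, against 15.6% of all genes (12.6% higher in the mandible), and 4 of the 7 had the same sign in all 3 dissections, against 50.3%. The 7 genes had a median log2 fold change of 0.16 (-0.03 after quantile normalization).

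**Figure D1:**
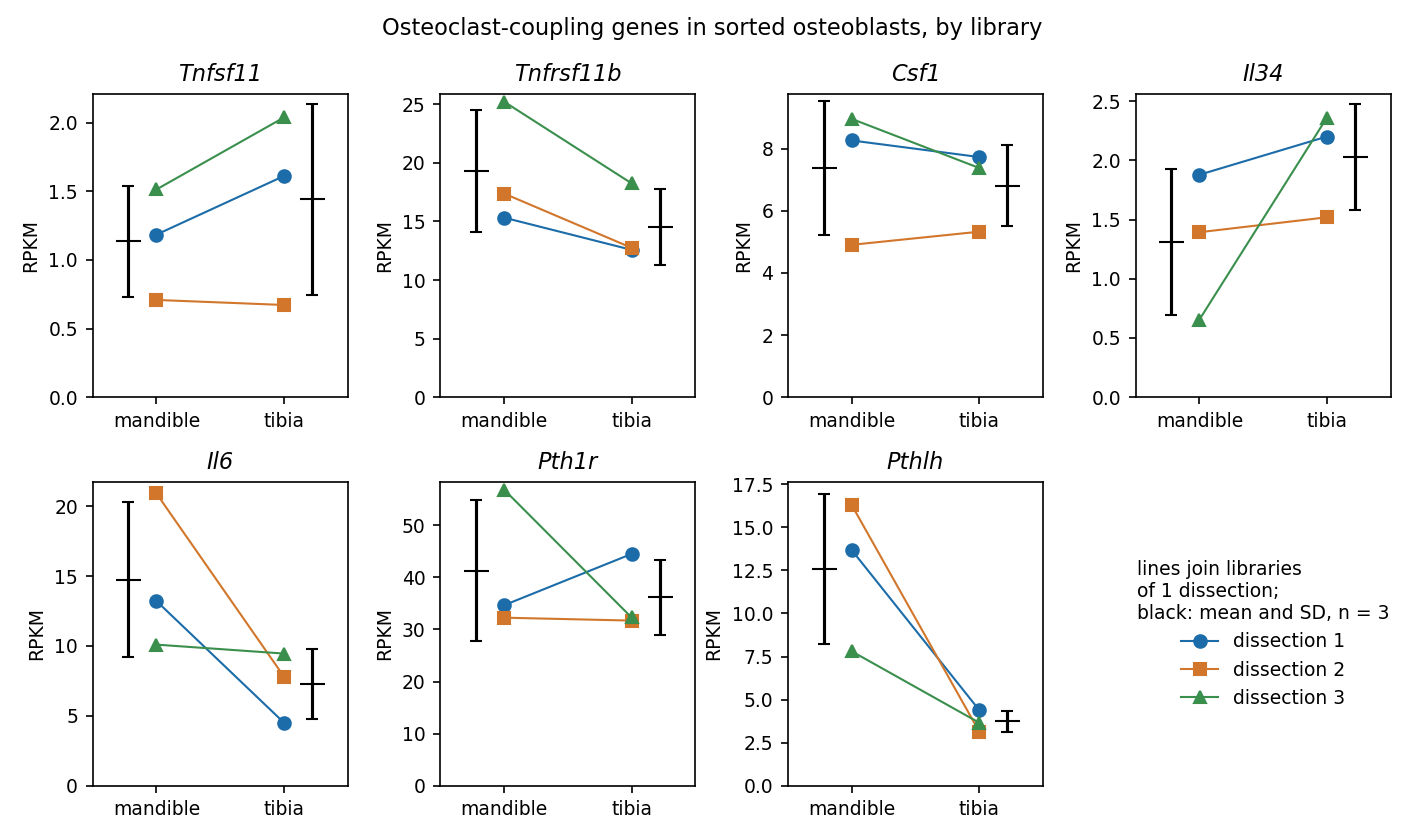
RPKM of each gene (vertical axes, linear from 0) in mandible and tibia libraries, with a line for each dissection and the mean ± SD of the 3 libraries of a site in black. Pthlh and Il6 are higher in each mandible library than in any tibia library, and the other 5 genes overlap between sites.

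Tnfsf11 encodes RANKL, the membrane-bound and shed ligand that osteoclast precursors need. The gene lies on the minus strand at chr14:78277445-78308043 (GRCm38), with a single transcript, NM_011613, in the table. It was at 1.18, 0.708 and 1.51 RPKM in mandible libraries 1 to 3, and at 1.61, 0.672 and 2.04 RPKM in tibia libraries 1 to 3. The sites overlapped, and within each site the library of dissection 2 was the lowest and that of dissection 3 the highest. These levels stand for an estimated 92.2 to 175 reads in the mandible and 77.8 to 236 reads in the tibia. The log2 fold change was -0.21 (SE 0.34, adjusted p = 0.960), and within dissections 1, 2 and 3 the difference was -0.33, 0.04 and -0.33. B cells and T cells also express this gene, and B cell markers, with 5 of 6 above the filter and none at 0 in any library, summed to 14.0 to 118 RPKM in the mandible and 39.1 to 217 RPKM in the tibia. T cell markers, with 4 of 6 above the filter, summed to 2.30 to 10.3 RPKM in the mandible and 4.03 to 10.4 RPKM in the tibia, with Cd8a at 0 in at least 1 library. Both sums were highest in dissection 3 at each site, and their part in the Tnfsf11 values was not tested. In bulk libraries fewer cells of a type and less RNA per cell cannot be told apart.

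Tnfrsf11b encodes osteoprotegerin, the secreted decoy receptor of RANKL, at chr15:54250619-54278484 on the minus strand. It was at 15.3, 17.4 and 25.2 RPKM in mandible libraries 1 to 3 and at 12.6, 12.7 and 18.3 RPKM in tibia libraries 1 to 3. The mandible library was the higher in each dissection, while the sites overlapped because tibia library 3 lay above mandible libraries 1 and 2. The log2 fold change was 0.39 (SE 0.26, adjusted p = 0.811), and 0.24 after quantile normalization. With the dissection as a block in limma the SE was 0.11 and the adjusted p 0.0879, or 0.238 with quantile normalization added. The within-dissection differences were 0.28, 0.43 and 0.46.

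The transcript ratio of Tnfsf11 to Tnfrsf11b was 0.0773, 0.0407 and 0.0600 in mandible libraries 1 to 3, and 0.128, 0.0527 and 0.112 in tibia libraries 1 to 3. Osteoprotegerin transcripts thus outnumbered RANKL transcripts per length in every library, by 12.9, 24.5 and 16.7 times in the mandible and by 7.81, 19.0 and 8.96 times in the tibia. The ratio was lower in the mandible in each of the 3 dissections, but mandible library 1 lay above tibia library 2, so the sites overlapped. Its mean was 0.0593 ± 0.0183 in the mandible and 0.0975 ± 0.0397 in the tibia (SD, n = 3 each). On the log2 scale with 0.5 RPKM added to each gene, the mandible minus tibia difference was -0.59, and -0.60, -0.39 and -0.79 within dissections 1, 2 and 3. An exact permutation test of the site labels over the 6 libraries gave p = 0.2 (two-sided), where 3 libraries against 3 cannot go below 0.1. Without both libraries of dissection 3 the difference was -0.49, and the same permutation test gave p = 0.667. With fewer libraries the smallest p it can give is higher still. Flipping the sign of the 3 within-dissection differences gave an exact p = 0.25, the smallest that 3 pairs allow. Neither of these exact tests can reach 0.05 with this number of libraries.

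**Figure D2:**
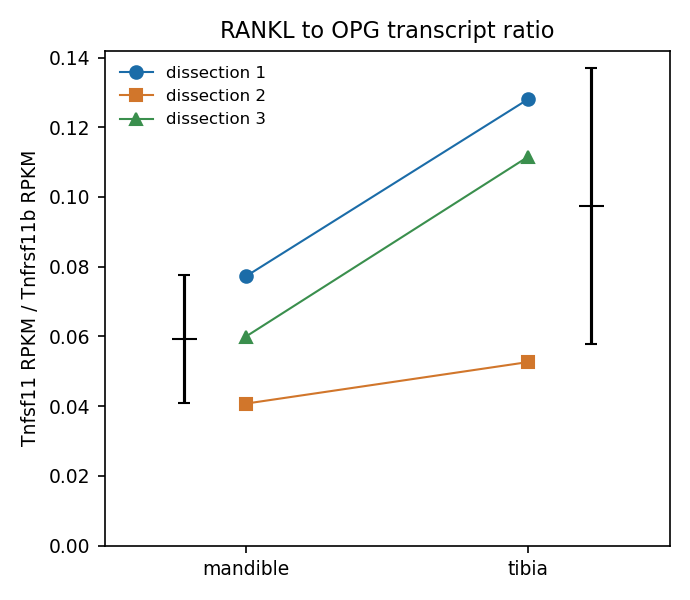
Ratio of Tnfsf11 to Tnfrsf11b RPKM (vertical axis, no unit, linear from 0) in each library, with a line for each dissection and the mean ± SD of the 3 libraries of a site in black. Every line ends lower at its mandible library, at 0.0407 to 0.0773, than at its tibia library, at 0.0527 to 0.128.

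The 250 bases before the start of Tnfsf11 are shown because this gene is the numerator of that ratio, with the window chr14:78308044-78308293 (GRCm38.p6, minus strand, RefSeq) read 5′ to 3′ and motif matches in capitals.
Tnfsf11: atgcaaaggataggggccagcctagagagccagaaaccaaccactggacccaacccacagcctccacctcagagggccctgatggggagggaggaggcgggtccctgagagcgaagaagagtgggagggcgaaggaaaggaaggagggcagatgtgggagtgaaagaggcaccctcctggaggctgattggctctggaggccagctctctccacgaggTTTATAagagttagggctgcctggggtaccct
The capitals mark the single match found, TATAAA on the opposite strand (written TTTATA) at bases -32 to -27, where -1 is the base before the start. TATAAA occurs on either strand in 12.4% of the 32851 promoter windows of this length in the RefSeq table. The other motifs searched on both strands were the GC box GGGCGG (in 32.7% of windows), the RUNX core TGTGGT (14.0%), the AP-1 site TGAGTCA (4.46%), the core TGACGT of the cyclic AMP response element (6.47%), the NF-kB site (GGGA, any base, then TTTCC, 0.356%) and the C/EBP site TTGTGCAA (0.895%), and these letters were not in this window. The motifs were chosen with the promoter sequences in view, and a match is only a description.

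Csf1 encodes macrophage colony-stimulating factor, the survival and growth factor of osteoclast precursors, at chr3:107741048-107760469 on the minus strand. Its summed level was 8.26, 4.90 and 8.95 RPKM in mandible libraries 1 to 3 and 7.73, 5.32 and 7.37 RPKM in tibia libraries 1 to 3. The sites overlapped, and dissection 2 was the lowest at both. The log2 fold change was 0.08 (SE 0.27, adjusted p = 0.978), below the median of all genes, and turned to -0.04 after quantile normalization. Within dissections 1, 2 and 3 it was 0.09, -0.11 and 0.26.

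The transcript make-up of Csf1 differed between dissections at both sites. Transcript NM_001113529 has a coding length of 771 bases in the matching GENCODE model, while NM_007778 and NM_001113530 have 1656 bases. Alternative splicing of Csf1 is known to give a short form that stays on the cell surface and a long form that is secreted. The short-coding transcript NM_001113529 made up 31.2%, 25.6% and 64.1% of Csf1 RPKM in mandible libraries 1 to 3 and 42.2%, 21.6% and 77.9% in tibia libraries 1 to 3. The long transcript NM_007778 made up 66.2%, 69.8% and 28.3% in the mandible and 51.6%, 73.0% and 13.1% in the tibia. In dissection 3 the short-coding transcript held the larger share at both sites, whereas in dissections 1 and 2 the transcript NM_007778 did. NM_001113530 held between 2.60% and 8.98% in any library. These transcripts also differ in exonic length (3058, 4176 and 2097 bases for NM_001113529, NM_007778 and NM_001113530), the shares are estimates of the authors' software, and no test was made between dissections, which have 1 library per site. The part of the other cells that stood out in dissection 3 was not tested.

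**Figure D3:**
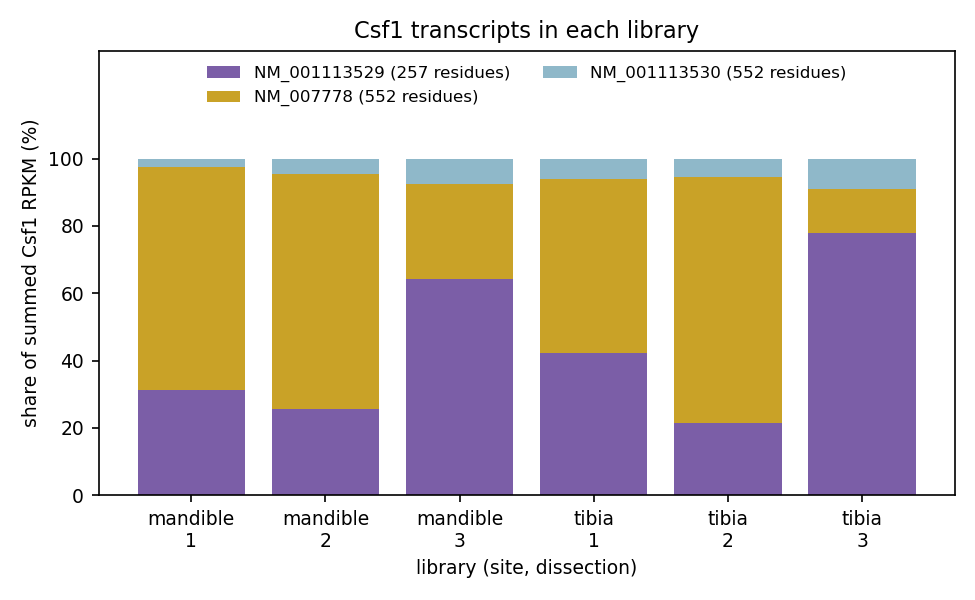
Share of summed Csf1 RPKM (vertical axis, percent) held by each of 3 transcripts in each library, with the residues that the coding length of the matching GENCODE model gives. NM_001113529 holds 64.1% and 77.9% in the mandible and tibia libraries of dissection 3, and 21.6% to 42.2% in the 4 others.

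Il34 encodes interleukin-34, the second ligand of the Csf1 receptor, at chr8:110741829-110805924 on the minus strand. It was at 1.88, 1.39 and 0.655 RPKM in mandible libraries 1 to 3, and at 2.20, 1.52 and 2.36 RPKM in tibia libraries 1 to 3. The mandible library was the lower in each dissection, most so in dissection 3, and the sites overlapped because mandible library 1 lay above tibia library 2. The log2 fold change was -0.53 (SE 0.30, adjusted p = 0.736), with -0.18, -0.09 and -1.31 within dissections 1, 2 and 3, and was -0.14 without both libraries of dissection 3. Transcript NM_001135100 held 62.8% to 99.9% of the level in the mandible and 79.9% to 94.3% in the tibia. The level of Il34 per Csf1 was 0.227, 0.284 and 0.0731 in mandible libraries 1 to 3 and 0.285, 0.285 and 0.320 in tibia libraries 1 to 3, so Csf1 was the more abundant ligand in all 6 libraries.

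Il6 encodes interleukin-6, a cytokine that raises RANKL in osteoblast-lineage cells, at chr5:30013114-30019981 on the plus strand. It was at 13.2, 20.9 and 10.1 RPKM in mandible libraries 1 to 3, and at 4.51, 7.81 and 9.45 RPKM in tibia libraries 1 to 3. All mandible libraries lay above all tibia libraries, but in dissection 3 the libraries were close together. The log2 fold change was 0.97 (SE 0.36) with an unadjusted p = 0.0309 and an adjusted p = 0.479 in limma, and was higher in 3 of 3 dissections, by 1.45, 1.37 and 0.09. With the block the adjusted p was 0.0857. Without both libraries of dissection 3 the log2 fold change was 1.41, with adjusted p = 0.0506 by site alone and, in a fit chosen after seeing the data, adjusted p = 0.00214 with the block as well (passed by 9.28% of all genes). Transcript NM_031168 held 97.6% to 99.9% of the level in the mandible and 99.8% to 99.9% in the tibia.

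The promoter window of Il6 is shown because this is a member whose sites did not overlap, at chr5:30012864-30013113 (plus strand) of GRCm38.p6, from RefSeq, with motif matches in capitals.
Il6: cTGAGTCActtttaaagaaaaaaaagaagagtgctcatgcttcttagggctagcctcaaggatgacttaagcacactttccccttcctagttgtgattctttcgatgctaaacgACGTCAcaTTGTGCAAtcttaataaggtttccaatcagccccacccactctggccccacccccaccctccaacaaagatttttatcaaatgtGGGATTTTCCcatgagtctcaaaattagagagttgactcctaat
The capitals mark TGAGTCA at bases -249 to -243, TGACGT on the opposite strand (written ACGTCA) at -136 to -131, TTGTGCAA at -128 to -121 and a match to the NF-kB site at -44 to -35, none of them overlapping. The share of all windows that hold each is given with the sequence of Tnfsf11. The RefSeq window of Pthlh lies partly in a first exon of the GENCODE models and is not shown.

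Pthlh encodes PTHrP, the local ligand of the PTH receptor, at chr6:147252101-147264183 on the minus strand. It was at 13.7, 16.3 and 7.80 RPKM in mandible libraries 1 to 3, and at 4.39, 3.14 and 3.66 RPKM in tibia libraries 1 to 3. The lowest mandible library was above the highest tibia library, and the mandible values of dissections 1 and 2 were well above that of dissection 3. Means were 12.6 ± 4.35 RPKM in the mandible and 3.73 ± 0.629 RPKM in the tibia (SD, n = 3 each), a log2 fold change of 1.58 (SE 0.30). The gene did not pass with site alone (adjusted p = 0.0934 in limma) and passed with the dissection as a block (SE 0.23, adjusted p = 0.0148). Within dissections 1, 2 and 3 the difference was 1.54, 2.21 and 1.0, and it was 1.48 after quantile normalization (adjusted p = 0.0160 with the block, passed by 6.15% of all genes). Without mandible library 3 it was 1.88 (adjusted p = 0.0206, passed by 1.11% of all genes), and without both libraries of dissection 3 it was 1.87 (adjusted p = 0.00440). Without any other single library it did not pass with site alone, with adjusted p between 0.205 and 0.415.

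Dental and epithelial tissue and cartilage are known to make PTHrP outside the osteoblast lineage, and their markers are given here beside the values of Pthlh and Il6. Higher at an adjusted p under 0.05 were 0.87% of all genes with site alone and 4.44% with the block. Cartilage markers summed to 135, 226 and 131 RPKM in mandible libraries 1 to 3 and to 58.5 to 89.3 RPKM in the tibia. Of 9 tested, 6 had a log2 fold change above 0, and 3 passed as higher with site alone (5 with the block). Matn1 and Ihh were at 0 in at least 1 library. Epithelial markers summed to 12.8, 23.5 and 10.7 RPKM in mandible libraries 1 to 3 and to 3.88 to 4.66 RPKM in the tibia. All 7 tested had a log2 fold change above 0, and 2 passed with site alone (3 with the block). Krt5, Krt14, Krt8 and Trp63 were at 0 in at least 1 library. Markers of odontoblasts and dental mesenchyme summed to 115, 135 and 42.6 RPKM in mandible libraries 1 to 3 and to 26.9 to 50.9 RPKM in the tibia. Of 7 tested, 6 had a log2 fold change above 0, and 4 passed as higher with site alone (6 with the block). Barx1 was at 0 in at least 1 library. Ameloblast markers summed to 513, 1270 and 2183 RPKM in mandible libraries 1 to 3 and to 6.73 to 9.79 RPKM in the tibia. Of 5 tested, 4 passed as higher in either model. Mmp20, Amtn and Odam were at 0 in at least 1 library. The ameloblast sum was highest in dissection 3, where Pthlh was lowest in the mandible. The cartilage, epithelial and odontoblast sums had the order of Pthlh in the mandible, highest in library 2 and lowest in library 3. None of these sums had the order of Pthlh in the tibia. Pthlh was highest there in library 1, the cartilage sum in library 2, and the epithelial and odontoblast sums in library 3. The odontoblast sum was lower in mandible library 3 than in tibia library 3, while the other 3 sums did not overlap between sites. Monocyte and macrophage markers, from cells that can make interleukin-6, summed to 389, 366 and 1623 RPKM in mandible libraries 1 to 3 against 540, 488 and 1887 RPKM in tibia libraries 1 to 3. Of 11 tested, 1 had a log2 fold change above 0. None passed with site alone, and 3 passed as lower with the block (Adgre1, C1qa and C1qb), against 2.05% of all genes. The part of all these cells in the Pthlh and Il6 values was not tested.

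Pth1r encodes the receptor for parathyroid hormone and PTHrP, at chr9:110722085-110747145 on the minus strand, and was the most abundant of the 7 genes. It was at 34.7, 32.3 and 56.9 RPKM in mandible libraries 1 to 3 and at 44.5, 31.7 and 32.3 RPKM in tibia libraries 1 to 3. The high values were mandible library 3 and tibia library 1, and the sites overlapped. The log2 fold change was 0.16 (SE 0.28, adjusted p = 0.963), went to -0.03 after quantile normalization, and differed in sign between dissections, at -0.36, 0.02 and 0.81. Its 3 transcripts start at separate places in GRCm38 (110747122, 110743686 and 110742719 for NM_011199, NM_001083935 and NM_001083936 in the GENCODE models) and code for the same length of 591 residues. Unlike those of Csf1, their shares moved little: NM_011199 held 38.3% to 44.1% in the mandible and 36.7% to 37.7% in the tibia, and NM_001083935 held 37.2% to 40.8% in the mandible and 38.6% to 39.9% in the tibia. NM_001083936 held 18.7% to 20.9% in the mandible and 23.0% to 24.6% in the tibia, without overlap, as estimated shares with no test. The ligand-to-receptor ratio of Pthlh to Pth1r was 0.395, 0.505 and 0.137 in mandible libraries 1 to 3 and 0.0986, 0.0990 and 0.113 in tibia libraries 1 to 3.

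**Figure D4:**
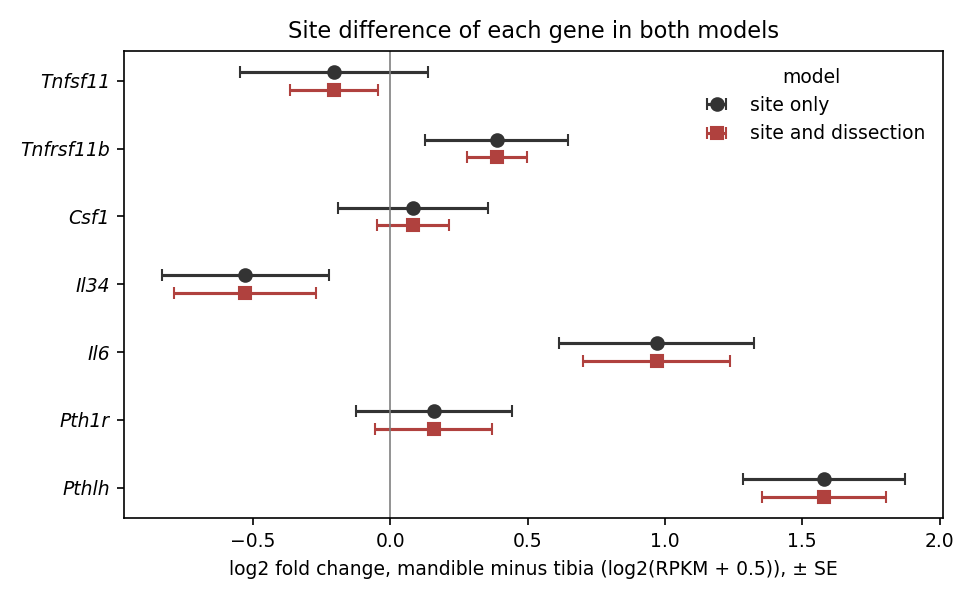
Log2 fold change ± SE, mandible minus tibia on log2(RPKM + 0.5) (horizontal axis), of the 7 genes in the model with site only (circles) and with site and dissection (squares). The estimates are the same in both, and for Pthlh at 1.58 the SE is 0.30 with site only and 0.23 with the dissection.

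By mean RPKM over the 6 libraries the order was Pth1r (38.7), Tnfrsf11b (16.9), Il6 (11.0), Pthlh (8.16), Csf1 (7.09), Il34 (1.67) and Tnfsf11 (1.29). The ranges of neighbours in that order were apart only between Pth1r and Tnfrsf11b and between Csf1 and Il34. Tnfrsf11b was above Il6 in 5 of 6 libraries, Il6 above Pthlh in 5, Pthlh above Csf1 in 2 and Il34 above Tnfsf11 in 5. Of all genes tested, 16.9% had a lower mean than Tnfsf11 and 89.6% a lower mean than Pth1r.

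Other factors by which osteoblasts address osteoclasts followed no single direction. Of 28 such genes, 24 were tested and none passed in limma with site alone. An unadjusted p under 0.05 was reached by 4, against 8.99% of all genes. With the block 4 passed, 2 higher and 2 lower in the mandible, against 6.49% of all genes. The list had a median log2 fold change of -0.05, against 0.12 over all genes. Ptges, a synthase of prostaglandin E2, was at 6.55 ± 2.76 RPKM in the mandible and 2.64 ± 0.502 RPKM in the tibia (1.10, adjusted p = 0.322, and 0.0184 with the block). The Wnt antagonist Sfrp1 was at 2.77 ± 0.434 RPKM in the mandible and 1.19 ± 0.324 RPKM in the tibia (0.96, adjusted p = 0.150, and 0.0439 with the block). Kitl, the ligand of the Kit receptor of blood precursors, was at 3.45 ± 0.895 RPKM in the mandible and 6.22 ± 1.06 RPKM in the tibia (-0.78, adjusted p = 0.369, and 0.0246 with the block). Kitl and Cxcl12 are also marrow stroma markers of the lists used here. None of the 6 genes of that list had a log2 fold change above 0. Lepr, Kitl and Adipoq passed as lower with the block, as did 2.05% of all genes, and none passed with site alone. The list summed to 58.2 to 108 RPKM in the mandible and 78.9 to 257 RPKM in the tibia. Cxcl12 is part of these sums. It was at 62.2, 72.7 and 32.3 RPKM in mandible libraries 1 to 3 and 205, 126 and 29.0 RPKM in tibia libraries 1 to 3. The part of stroma cells in the Kitl and Cxcl12 values was not tested. Il1rn, which blocks interleukin-1, was at 2.39, 3.47 and 9.05 RPKM in mandible libraries 1 to 3 against 3.48, 5.53 and 15.4 RPKM in tibia libraries 1 to 3 (log2 fold change -0.60, adjusted p = 0.920, and 0.0449 with the block). At each site it rose from library 1 to library 3, as did the sum of the neutrophil markers. The part of blood cells in the Il1rn values was not tested. The most abundant genes of the list were the matrix phosphoprotein Spp1 at 0.46, the chemokine Cxcl12 at -0.79 and the monocyte attractant Ccl2 at 0.54, and they did not pass in either model. Sfrp1 and Il1rn missed the threshold with the block once dissection 3 was left out (adjusted p = 0.0670 and 0.0758), and Sfrp1 also after quantile normalization with the block (0.0538). Without dissection 3 and with site alone, Ccl2 passed at 0.99 (adjusted p = 0.0178) and Cxcl12 at -1.25 (adjusted p = 0.0346). Wnt5a, a Wnt ligand that acts on osteoclast precursors, is named here after its values were seen: it was at 9.71, 10.9 and 4.25 RPKM in mandible libraries 1 to 3, against 3.66, 3.97 and 3.51 RPKM in tibia libraries 1 to 3. Its sites did not overlap, as for 15.6% of all genes, and it did not pass with all libraries (0.96, adjusted p = 0.455, and 0.0645 with the block). It passed without mandible library 3 (adjusted p = 0.0316) and without both libraries of dissection 3 (1.32, adjusted p = 0.00460 with site alone and 0.00332 with the block).

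Of the interleukin-6 family and its gp130 pathway, 14 of 18 genes were tested, and none passed in limma with site alone. An unadjusted p under 0.05 was reached by 2, against 8.99% of all genes. With the block 2 passed as higher in the mandible, against 6.49% of all genes passing. These were Lif, a cytokine that signals through gp130, at 3.77 ± 1.90 RPKM in the mandible and 1.77 ± 0.874 RPKM in the tibia (0.87, adjusted p = 0.674, and 0.0275 with the block), and the interleukin-11 receptor chain Il11ra1 (1.10, adjusted p = 0.535, and 0.0179 with the block). Il11ra1 was at 141 ± 51.9 RPKM in the mandible and 66.6 ± 32.0 RPKM in the tibia, and has near-identical copies in the mouse genome with which it can share reads. The feedback inhibitor Socs3 was at 58.0, 54.7 and 38.8 RPKM in mandible libraries 1 to 3 and at 28.3, 31.0 and 33.3 RPKM in tibia libraries 1 to 3. Its sites did not overlap, as for 15.6% of all genes. It did not pass in either model (0.68, adjusted p = 0.411, and 0.0644 with the block), but did without dissection 3 (0.92, adjusted p = 0.00799 with site alone). Stat3, the transcription factor of the pathway, was at 0.08 without passing. The list median was 0.00.

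Downstream of the PTH receptor, 26 of 28 genes were tested and none passed in limma with site alone, also none at an unadjusted p under 0.05. With the block 1 of the 26 passed, against 6.49% of all genes. This was the collagenase gene Mmp13, at 904, 644 and 1111 RPKM in mandible libraries 1 to 3 and 566, 397 and 682 RPKM in tibia libraries 1 to 3 (0.69, adjusted p = 0.671, and 0.0105 with the block). It was higher in the mandible in each dissection, although mandible library 2 lay below tibia library 3. The immediate early factor Nr4a1 (0.59) and the stimulatory G protein gene Gnas (0.10, and -0.09 after quantile normalization), the next in abundance, did not pass in either model, though Nr4a1 did without dissection 3 (0.85, adjusted p = 0.0259 with site alone). The list median was 0.09. The hormone gene Pth was listed at 0 except in tibia library 2, at 0.0268 RPKM, and the second receptor Pth2r was listed at 0 except in tibia library 1, at 0.185 RPKM.

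Regulators of RANKL and osteoprotegerin, with the proteases that shed RANKL, had 17 of 19 genes tested. None passed in limma in either model or had an unadjusted p under 0.05 with site alone, and the median was 0.08. The most abundant were the membrane protease Mmp14 (0.21), the TNF receptor Tnfrsf1a (0.31) and beta-catenin, Ctnnb1 (0.12, and -0.02 after quantile normalization). Of 7 receptors and binding partners 6 were tested, none passed with site alone, and the median was 0.09. An unadjusted p under 0.05 was reached by 1, against 8.99% of all genes. With the block 1 of the 6 passed, against 6.49% of all genes. This was the syndecan Sdc1, which binds interleukin-34, at 24.6, 21.9 and 14.3 RPKM in mandible libraries 1 to 3 and 10.5, 13.4 and 7.58 RPKM in tibia libraries 1 to 3 (0.92, adjusted p = 0.397, and 0.0154 with the block). The Csf1 receptor Csf1r, at 25.6 ± 3.59 RPKM in the mandible and 25.2 ± 4.95 RPKM in the tibia (0.03, adjusted p = 0.988, and -0.11 after quantile normalization), and the RANKL-binding receptor Lgr4 (0.14) did not pass in either model. RANK itself, Tnfrsf11a, named here after its values were seen, was at 0.512 ± 0.126 RPKM in the mandible and 0.517 ± 0.294 RPKM in the tibia. Csf1r is on the monocyte and macrophage marker list used here, and Tnfrsf11a is on the osteoclast marker list. That osteoclast list of 11 summed to 716 to 876 RPKM in the mandible and 629 to 671 RPKM in the tibia, without overlap. It had 10 genes above the filter, 9 of them with a log2 fold change above 0, and Calcr was at 0 in at least 1 library. The list median was 0.29 (0.09 after quantile normalization), and none of its genes passed in either model. Over the lists, Ptges, Kitl, Lif, Il11ra1, Mmp13 and Sdc1 passed with the block with or without dissection 3.

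**Figure D5:**
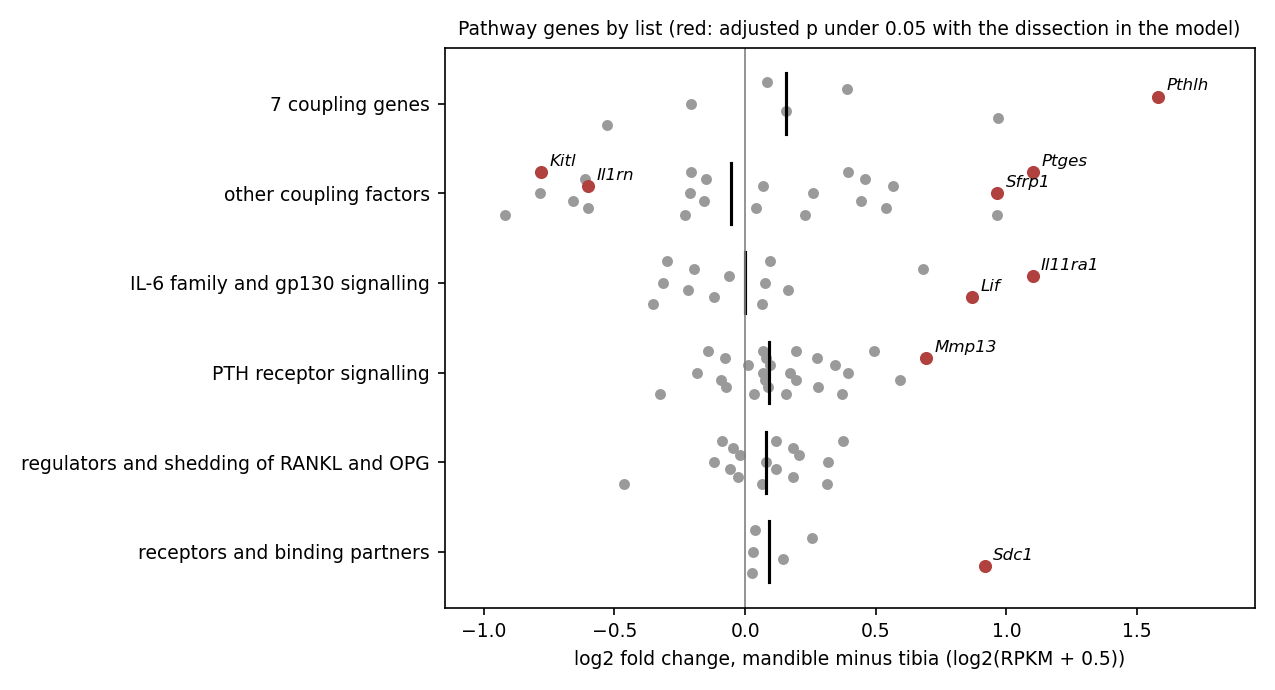
Log2 fold change, mandible minus tibia on log2(RPKM + 0.5) (horizontal axis), of every tested gene of the 7 coupling genes and 5 related lists, with list medians as black bars. Genes past an adjusted p of 0.05 with the dissection in the model are red and named, and Pthlh at 1.58 lies farthest to the right.

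The genes whose pattern over the 6 libraries was most like that of a member were found by Pearson's r on log2(RPKM + 0.5), as a description of 6 libraries in which dissection 3 stands apart. Closest to Pthlh were Acsbg1 (r = 0.999), Carf (0.997) and Bcas3 (0.996), and 472 genes had r above 0.9 with it. Closest to Il6 were Ppfia4 (0.983), Nhlrc2 (0.982) and Faf2 (0.981). Tnfsf11 was closest to Usp31 (0.996), Sash1 (0.987) and Cpeb2 (0.986), and Tnfrsf11b to Gpx4 (0.998), Ankrd13c and Zfp277 (both 0.995), with 947 genes above 0.9. Csf1 was closest to Itgav (0.977), Grrp1 (0.971) and Upk1a (0.970), Il34 to Pcf11 (0.994), Kmt2c (0.987) and Nav1 (0.983), and Pth1r to Ints6, Cdk2ap2 (both 0.988) and Ap1s1 (0.982). No member was among the 3 closest genes of another member.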

How the data were processed

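RNA of sorted cells (2 to 8 ng per preparation) was amplified with a low-input cDNA kit before sequencing, per the labels' protocols, and amplification adds error beyond counting. The deposited values are RPKM per RefSeq transcript, made by the authors: per the file headers reads were mapped to mm10 and RPKM calculated with Partek 6.15.1207, while the submitters' processing notes name CASAVA 1.8.2, TopHat2 2.1.0 and Partek 6.6. Strand setting and handling of reads shared between transcripts are not given in the sources used here. RPKM leaves uncorrected the reads that a few abundant transcripts take.

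The table held 30198 transcripts of 19679 symbols, and values were summed per symbol. Read totals were recovered from 13731 single-transcript genes, with lengths from GENCODE M21 (GRCm38), as the total that put the most values within 0.01 of 1 read. Between 66.3% and 70.5% of values of 0.5 to 5.5 reads then lay within 0.05 of a whole number, against 10% by chance for a total set beforehand. No count model was fitted, since transcript shares are estimates. Testing covered genes averaging 0.5 RPKM or more, on the log2(RPKM + 0.5) scale, in limma 3.58.1 under R 4.3.3 (lmFit, eBayes with trend, two-sided, Benjamini-Hochberg over 12752 genes, threshold 0.05), a scale that understates changes of low genes. All adjusted p-values come from limma. A run on data simulated from the means and spreads of these same libraries is not used as support for any call. The ratio was tested by exact permutation with scipy 1.17.1. Figures were drawn with matplotlib 3.10.9.

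Experiment names in the labels tie same-numbered libraries to a dissection. Deviations from site means correlated across genes at 0.59, 0.66 and 0.80 for pairs 1, 2 and 3, and at 0.55 and 0.52 for the crossed pairs of 1 and 2, so the correlations mainly set dissection 3 apart. The numbers were taken as pairs, and the dissection as a block was the second model. Preparations pooled many mice, so p-values measure the spread between 3 pools.

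Members, gene lists and markers were chosen with earlier results of these data known. Named from each pathway list were genes past the threshold in either model and the 3 most abundant, and for each member the 3 genes most like it. Promoter sequences came from a RefSeq table of GRCm38.p6. The deposited table of transcription factors was not used, as it holds none of the members. Alternatives were another pseudocount, filter, scaling or transcript choice, the block, and left-out libraries.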

Additional observations from a re-analysis of the deposited data

How the results depend on the processing

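Adding the dissection as a block, 828 genes passed instead of 124, and 784 when quantile normalization was added, of which the share higher in the mandible was 68.4% and 45.9%, against 89.5% with site alone. Leaving out 1 library at a time gave 37 to 141 genes, dropping dissection 3 gave 724, and that together with the block (chosen after seeing the data) gave 1168. Of the genes tested, 0.972% passed with site alone, 6.49% with the block and 6.15% with quantile normalization added. Without dissection 3 the share was 5.75%, and 9.28% with the block as well. In the order block, block with quantile normalization, without both libraries of dissection 3, and block without dissection 3, the 7 members had 1, 1, 1 and 2 past the threshold, other coupling factors 4, 6, 6 and 8, the interleukin-6 family 2, 2, 1 and 3, PTH receptor signalling 1, 1, 1 and 2, and receptors and binding partners 1, 1, 1 and 1, against 0 in each with site alone. Over single left-out libraries these counts ranged from 0 to 1 for the members and for other coupling factors, each time 1 without mandible library 3, and were 0 for the other lists. With all 6 libraries the block changed the call of Pthlh and of no other member, and without dissection 3 it changed that of Il6. The cause of these changes was not tested.

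Signs were not stable for genes near 0. Csf1 was at -0.043 with quantile normalization (with or without the block), -0.046 with median-of-ratios scaling and -0.0089 without dissection 3 (with or without the block), and ranged from -0.073 to 0.33 over single left-out libraries. Pth1r was at -0.025 with quantile normalization (with or without the block), -0.17 without dissection 3 (with or without the block), and from -0.094 to 0.31 over left-out libraries, and Tnfsf11 from -0.53 to 0.025, positive only without tibia library 3. Pthlh (1.37 to 1.88), Il6 (0.68 to 1.20), Tnfrsf11b (0.18 to 0.56), Il34 (-0.76 to -0.24) and the log2 ratio of Tnfsf11 to Tnfrsf11b (-0.84 to -0.41 over left-out libraries, with exact permutation p of 0.2 to 0.4) kept their sign under every alternative run. With a single library left out, 0.2 is the smallest p that this permutation test can give. Without both libraries of dissection 3 the log2 ratio differed by -0.49, with p = 0.667 in the same permutation test. With 3 libraries per site, and site alone in the model, SEs of 0.26 to 0.36 limit what could be called among the members.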

Other observations

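Il1a, Il1b and Tnf, inflammatory cytokines in the list of other coupling factors, are named here after their values were seen. Il1b was at 1.23, 2.83 and 11.5 RPKM in mandible libraries 1 to 3 and at 2.23, 5.07 and 15.4 RPKM in tibia libraries 1 to 3. In all 3 dissections the mandible library was the lower (log2 fold change -0.60, limma adjusted p = 0.953 with site alone and 0.0514 with the block), and passed with the block after quantile normalization (0.0327) and without dissection 3 (0.0413). Il1a was at 0.818, 0.854 and 1.501 RPKM in the mandible and 1.57, 1.23 and 3.05 RPKM in the tibia, in the same order (-0.61, limma adjusted p = 0.690, 0.0777 with the block and 0.0455 with the block after quantile normalization). Tnf was at 2.81, 2.07 and 6.55 RPKM in the mandible and 1.797, 1.76 and 6.26 RPKM in the tibia. All 3 were highest in dissection 3 at each site, as was the sum of the monocyte and macrophage markers. Il6 did not share this pattern in the mandible, where its library of dissection 3 was the lowest, at 10.1 RPKM. It did share the pattern in the tibia, at 4.51, 7.81 and 9.45 RPKM in libraries 1 to 3. The part of monocytes and macrophages in the cytokine levels was not tested.

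Below the filter, Cntfr, the receptor chain for ciliary neurotrophic factor, was at 0.697, 0.580 and 0.623 RPKM in mandible libraries 1 to 3 and at 0.164, 0.242 and 0.0971 RPKM in tibia libraries 1 to 3. All mandible libraries lay above all tibia libraries, as for 12.6% of the genes above the filter, and with no filter it did not pass in limma (log2 fold change 0.77, adjusted p = 0.0677).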
